A study of Homo sapiens with 6 samples.

Results

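The ETS family is a group of transcription factors that share the ETS domain, a winged helix-turn-helix that binds DNA around a GGAA core. Many members are end points of the RAS, RAF, MEK and ERK kinase cascade, which phosphorylates them and thereby raises or lowers their activity. In epithelial cells, ELF3 and EHF are epithelium-specific members, ETS1 and the PEA3 subfamily are known as activators of matrix-degrading proteases, the ternary complex factors act with SRF on immediate early genes, and GABPA is a broadly expressed activator of housekeeping and mitochondrial genes. The 10 genes described here were chosen by symbol, as ETS1 and the other ETS factors of epithelial cells, namely ETS2, ELK1, ELK3, ELF1, ELF3, EHF, ETV4, ETV5 and GABPA. They are 10 of the 58735 genes in the table and 10 of the 28 ETS genes looked up by symbol.

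The libraries came from HCT116 cells, an established human colorectal carcinoma cell line given as wild type in the labels. CTR stands for 3 RNA-seq libraries of control-transfected cells, and miR-8485 for 3 libraries made after transfection of the miRNA mimic at 50 nM, a synthetic RNA meant to act as the miRNA. Cells were collected 48 h after transfection, and the labels call the replicates independent. The dose and sequence of the control transfection are not given in the sources used here, so the groups differ by the mimic together with whatever else the control transfection did not match.

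All values are FPKM, fragments scaled to the length of the gene and to the fragments of the library, so that levels of different genes are compared per length. The fragments behind each value were recovered, and the libraries held 17473874 to 18480047 fragments on listed genes. Differences were tested with limma on log2(FPKM + 0.1) over the 12349 genes whose mean FPKM reached 1, and a gene was called at a Benjamini-Hochberg adjusted p under 0.05. The mimic libraries differed widely from CTR, with 29.1% of the tested genes called up, 30.5% called down and 59.6% called in either direction, against which every count below has to be read. Of 9 fixed markers of colon epithelium, EPCAM, CDH1, KRT8, KRT18, KRT19 and CDX2 were above the filter, while CDX1, VIL1 and LGALS4 had at most 8 fragments in any library. The markers did not move together. KRT8, KRT18 and KRT19 fell by 0.62, 0.97 and 0.58 on the log2 scale, EPCAM and CDH1 were called in neither direction, and CDX2 rose by 0.81. The summed level of the 9 markers, made up mostly of the keratins, was 2610 to 2840 FPKM in CTR and 1750 to 1840 FPKM in miR-8485. Of 7 markers of immune, endothelial, stromal and liver cells, COL1A1 alone was above the filter and rose by 0.56 on the log2 scale. ALB went from 1 to 3 fragments per CTR library to 14 to 28 per miR-8485 library. PECAM1 went the other way, from 6 to 12 fragments per CTR library to 2 to 4 per miR-8485 library, and was not called. VWF had 18 to 34 and 22 to 40 fragments and was not called. COL1A2 and PTPRC had at most 1 fragment in any library, and CD3E was listed at 0 throughout. The sum of the 7, made up mostly of COL1A1, was 4.32 to 4.55 FPKM in CTR and 6.77 to 6.93 FPKM in miR-8485. The part of these shifts in the ETS values was not tested.

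The sequence of the mimic is shown first because its seed, bases 2 to 8 in capitals, sets which 3′ UTRs it can pair with, together with the matching stretch in the tested ETS genes that carry one. The sequence, of 17 bases, is the one given in the authors' methods and was not compared with that of the mature miRNA. The seed ACACACA pairs with TGTGTGT, written in capitals within 27 bases around 1 copy of each gene.
miR-8485 mimic: cACACACAcacacguau
ETS1: tgtgtgtgtgTGTGTGTgtgtgtgtgt
ELK3: cctcattctgTGTGTGTgtgcatgtgt
ELK4: tgaatgtgtgTGTGTGTgtgtgtgcgc
EHF: tgtgtgtctgTGTGTGTgtctgagttg
GABPA: caattatataTGTGTGTgtatgttttt
ELF4: tctccaagggTGTGTGTatgtctccgt
All sites are 5′ to 3′ on the strand of the gene and come from GRCh38 with the GENCODE release 44 annotation. They lie in 3′ UTR exons at chr11:128460082-128460108 (minus strand) for ETS1, chr12:96269560-96269586 (plus) for ELK3, chr1:205610773-205610799 (minus) for ELK4, chr11:34661232-34661258 (plus) for EHF, chr21:25771247-25771273 (plus) for GABPA and chrX:130066224-130066250 (minus) for ELF4. The site of EHF lies past the end of EHF in the authors' table (34661057), so the deposited values of EHF do not cover it.

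The authors' table places the 10 genes on hg38 as follows. It lists ETS1 (ENSG00000134954) at chr11:128458761-128587558 (minus), ETS2 (ENSG00000157557) at chr21:38805307-38824955 (plus), ELK1 (ENSG00000126767) at chrX:47635521-47650604 (minus), ELK3 (ENSG00000111145) at chr12:96194382-96269835 (plus), ELF1 (ENSG00000120690) at chr13:40932028-41061440 (minus). It further lists ELF3 (ENSG00000163435) at chr1:202007945-202017188 (plus), EHF (ENSG00000135373) at chr11:34621093-34661057 (plus), ETV4 (ENSG00000175832) at chr17:43527844-43579620 (minus), ETV5 (ENSG00000244405) at chr3:186046308-186110318 (minus) and GABPA (ENSG00000154727) at chr21:25734570-25772460 (plus).

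Among the 10 ETS factors, 5 were downregulated, 1 was upregulated and 4 were called in neither direction. ETS1, ELK3, ETV4, ELF3 and ETV5 fell and ELF1 rose, each with no overlap between the CTR and miR-8485 libraries, as was the case for 66.5% of the tested genes (32.5% higher and 34.0% lower in miR-8485). The share of 5 of 10 called down stood beside 30.5% of all tested genes, and that of 1 of 10 called up beside 29.1%. In either direction, 6 of 10 were called, near the 59.6% of all tested genes. The median log2 fold change of the 10 was -0.19 against -0.0041 over all tested genes. ETS1 had the most negative log2 fold change of the 10 and was also the lowest of them in CTR, but with a pseudocount of 1 in place of 0.1 it had -0.87 and ELK3 -0.94. In RNA from whole cultures, fewer cells that express a gene and less of its RNA per cell cannot be told apart. The plot of the 10 genes by library shows the separation of the 6 changed genes and the overlap of ETS2, ELK1, EHF and GABPA.

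**Figure D1:**
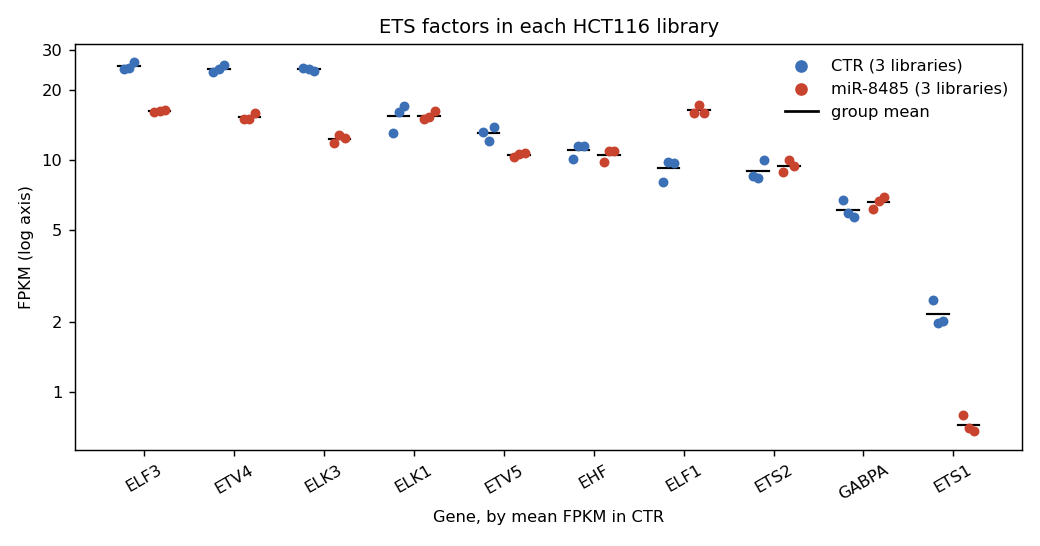
FPKM (log axis) of the 10 ETS factors in each library, ordered by their mean in CTR, with blue points for CTR, red points for miR-8485 and black lines for group means. ETS1 lies between 1.98 and 2.49 FPKM in CTR and between 0.676 and 0.794 FPKM in miR-8485, and ELF1 is the gene whose red points lie above the blue ones without overlap.

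ETS1, a proto-oncogene product that activates protease and angiogenesis genes, was measured at 2.49, 1.98 and 2.02 FPKM in CTR replicates 1 to 3 and at 0.794, 0.696 and 0.676 FPKM in miR-8485 replicates 1 to 3. All 3 mimic libraries were far below the lowest control, at 33.4% of the CTR mean, with 90 to 102 fragments per mimic library against 256 to 321 per control. The log2 fold change was -1.46 ± 0.16 (SE, limma adjusted p = 2.2e-04), and a log2 fold change of -1 or lower with a call was reached by 4.49% of the tested genes. ETS2, its closest relative, had 8.51, 8.37 and 10 FPKM in CTR and 8.93, 10 and 9.40 FPKM in miR-8485. Its groups overlapped, with a log2 fold change of 0.078 ± 0.083 (SE, limma adjusted p = 0.443).

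The ternary complex factors bind DNA together with SRF. ELK3, which acts as a repressor until it is phosphorylated, fell from 24.9, 24.8 and 24.3 FPKM in CTR to 11.8, 12.8 and 12.5 FPKM in miR-8485. The replicates lay close together within each group, and the log2 fold change was -0.99 ± 0.048 (SE, limma adjusted p = 6.1e-06). ELK1, the activator of the same subfamily, had 13.1, 16.2 and 17.1 FPKM in CTR and 15, 15.4 and 16.3 FPKM in miR-8485, where the spread among controls covered every mimic library (log2 fold change 0.021 ± 0.097 SE, limma adjusted p = 0.867). Thus ELK3 stood above ELK1 in all CTR libraries and below it in all miR-8485 libraries. The third factor, ELK4, was low at 1.91 ± 0.244 FPKM in CTR and 2.20 ± 0.207 FPKM in miR-8485 (SD, n = 3 each) and was called in neither direction (limma adjusted p = 0.212).

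The PEA3 subfamily holds ETV1, ETV4 and ETV5, activators whose genes are held down by the repressor CIC. ETV4 fell from 23.9, 24.8 and 25.7 FPKM to 15, 15 and 16 FPKM (log2 fold change -0.69 ± 0.050 SE, limma adjusted p = 3.0e-05). ETV5 fell less, from 13.2, 12.1 and 13.9 FPKM to 10.3, 10.6 and 10.7 FPKM, with a log2 fold change of -0.31 ± 0.060 (SE, limma adjusted p = 0.00309). ETV1, the least expressed of the subfamily, rose from 1.15, 1.31 and 1.48 FPKM to 1.89, 2.39 and 2.16 FPKM (log2 fold change 0.67 ± 0.14 SE, limma adjusted p = 0.00511). The groups did not overlap for any of the 3 genes. Their summed level was 39.2 ± 1.60 FPKM in CTR against 28 ± 0.845 FPKM with the mimic (SD, n = 3 each).

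Of the epithelium-specific factors, ELF3 was called and EHF was not. ELF3, at 24.8, 24.9 and 26.4 FPKM the highest ETS gene in CTR by its mean, fell to 16.2, 16.3 and 16.5 FPKM (log2 fold change -0.63 ± 0.044 SE, limma adjusted p = 2.5e-05). EHF had 10.1, 11.5 and 11.5 FPKM in CTR and 9.85, 10.9 and 10.9 FPKM in miR-8485, with overlapping groups and a log2 fold change of -0.059 ± 0.073 (SE, limma adjusted p = 0.517). The third epithelial factor, ELF5, lay below the filter, with 15 to 40 fragments per CTR library and 58 to 75 per miR-8485 library, and in the fit of all 31768 genes above 0 it was not called (limma adjusted p = 0.101), in a fit that called 22.1% of those genes in either direction.

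ELF1 and ELF4, related activators best known from blood and endothelial cells, moved in opposite directions. ELF1 rose from 8.07, 9.84 and 9.74 FPKM in CTR to 15.9, 17.3 and 16 FPKM in miR-8485, with a difference on the log2 scale of 0.83 ± 0.084 (SE, limma adjusted p = 1.4e-04). ELF4 fell from 10.6, 11.7 and 12.6 FPKM to 5.96, 5.12 and 5.44 FPKM, a log2 fold change of -1.06 ± 0.083 (SE, limma adjusted p = 3.9e-05). Both changes exceeded the spread of their replicates, and the summed level of ELF1, ELF2 and ELF4 was 23.1 ± 1.84 FPKM in CTR against 24.3 ± 0.694 FPKM with the mimic (SD, n = 3 each). ELF2 was at 2.30 ± 0.264 and 2.40 ± 0.330 FPKM (SD, n = 3 each), in neither direction.

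GABPA, the DNA-binding subunit of GA-binding protein, had 6.72, 5.93 and 5.67 FPKM in CTR and 6.16, 6.64 and 6.92 FPKM in miR-8485, with overlapping groups and a log2 fold change of 0.11 ± 0.080 (SE, limma adjusted p = 0.278). ERF and ETV3 are related repressors of the family. ETV3 fell from 5.21, 5.96 and 5.65 FPKM to 3.98, 3.85 and 4.42 FPKM (log2 fold change -0.45, limma adjusted p = 0.00201), while ERF rose slightly from 21.3, 20.9 and 19.1 FPKM to 24.6, 22.2 and 22.7 FPKM (log2 fold change 0.18, limma adjusted p = 0.0345). The call of ERF was lost in 8 of 17 alternative settings, among them 4 of the 6 fits with 1 library left out (CTR replicate 2 or 3, miR-8485 replicate 1 or 3). ETV6, a repressor, had a log2 fold change of -0.21 (limma adjusted p = 0.162).

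**Figure D2:**
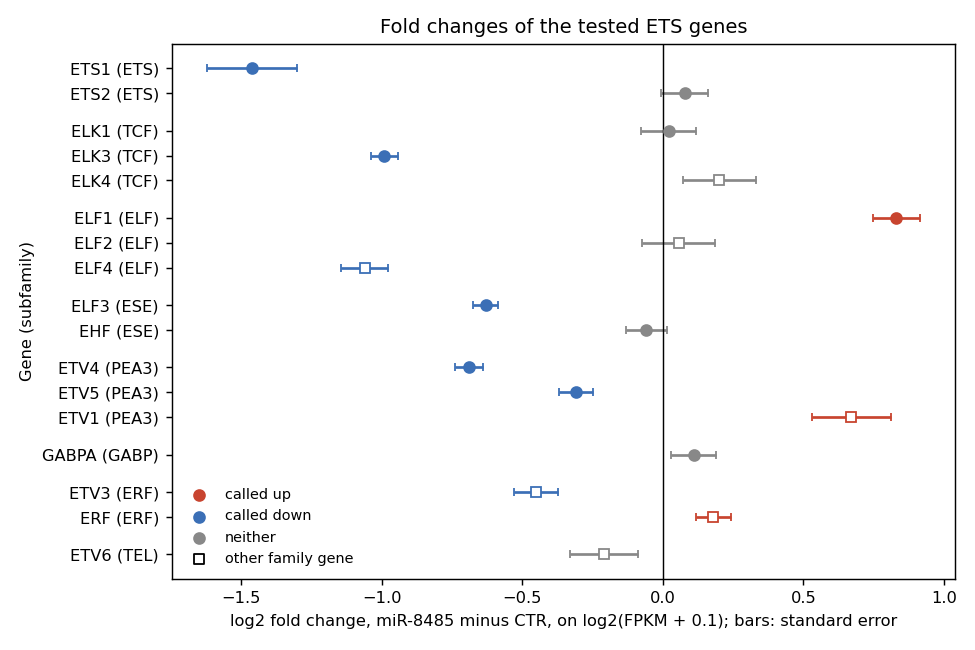
log2 fold change (miR-8485 minus CTR, on log2(FPKM + 0.1)) with its standard error for the 17 tested ETS genes, grouped by subfamily, with filled circles for the 10 factors and open squares for other family genes, red for called up, blue for called down and grey for neither. The genes of the ETS, TCF, ELF, ESE, PEA3 and ERF subfamilies do not lie together, and the points run from ETS1 at -1.46 to ELF1 at 0.83.

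Of the other 18 ETS genes, 7 were tested, with ETV1 and ERF called up, ELF4 and ETV3 called down and ELK4, ELF2 and ETV6 called in neither direction. The remaining 11 lay below the filter and none of them was called in limma on all genes above 0, where ELF5 alone had an unadjusted p under 0.05 (0.0266). With voom on the recovered fragments ELF5 was called up (adjusted p = 0.00463), and without CTR replicate 3 SPDEF was called down (adjusted p = 0.0411 in limma). The blood and endothelial factors ERG and FLI1 were listed at 0 in all libraries, and FEV, ETV3L, SPIC, SPI1, SPIB and SPDEF had at most 8 fragments in any library. ETV2 and ETV7 had at most 32. Over the 17 tested ETS genes, 3 were called up and 7 down, with a median log2 fold change of -0.06. Of all tested genes, 29.1% were called up, 30.5% down and 59.6% in either direction.

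The order of the ETS levels changed with the mimic. In CTR, ELF3, ETV4 and ELK3 came first with overlapping ranges, followed by ERF, whose range was apart from theirs, and ETS1 was 15th of 17 with a range that overlapped those of ELF2 and ELK4. In miR-8485, ERF came first, and ELF1 had moved from 9th to 2nd place by its mean, with a range that overlapped those of ELF3, ELK1 and ETV4. ETS1 was last, apart from ETV1 above it. The summed level of the 28 ETS genes was 189 ± 4.84 FPKM in CTR against 158 ± 2.72 FPKM with the mimic (SD, n = 3 each). Of this sum, ETS1 made up 1.15 ± 0.179% in CTR and 0.457 ± 0.0484% in miR-8485 (SD, n = 3 each), and ELF1 4.87 ± 0.425% and 10.4 ± 0.450%. ELK3 went from 13.1 ± 0.493% to 7.81 ± 0.224% of the sum. None of these sums or shares overlapped between the groups, which gives an exact two-sided permutation p of 0.10, the smallest that 3 libraries against 3 allow.

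The question whether ETS1 changed differently from the other factors was asked of the ratio of ETS1 to each of them within each library, in which the scaling of the library cancels. The mean log2 ratio of ETS1 to ETS2 went from -2.01 ± 0.26 to -3.54 ± 0.18 (SD, n = 3 each), a difference of -1.53. The difference was -2.29 against ELF1, -1.56 against GABPA, -1.48 against ELK1, -1.40 against EHF, -1.14 against ETV5, -0.82 against ELF3, -0.77 against ETV4 and -0.46 against ELK3. All 9 ratios were lower in the 3 mimic libraries than in any CTR library, with an exact two-sided permutation p of 0.10 for each, also after adjustment over the 9 ratios. With a pseudocount of 1, which weighs on the low level of ETS1, the differences were smaller, at -1.65 against ELF1, -0.97 against GABPA, -0.95 against ETS2, -0.89 against ELK1, -0.82 against EHF, -0.58 against ETV5, -0.27 against ELF3 and -0.22 against ETV4. The difference from ELK3 was then 0.069, so these libraries do not separate the fall of ETS1 from that of ELK3. For the other factors the direction held, but with a smallest possible p of 0.10 the test could not reach 0.05 for any of the 9. Of 5 further pairs within subfamilies, chosen after the values were seen, the log2 ratio differed by -1.01 for ELK3 to ELK1, -0.57 for ELF3 to EHF, -0.38 for ETV4 to ETV5, -1.89 for ELF4 to ELF1 and -1.36 for ETV4 to ETV1, each with no overlap and with the same exact p of 0.10, the smallest possible.

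**Figure D3:**
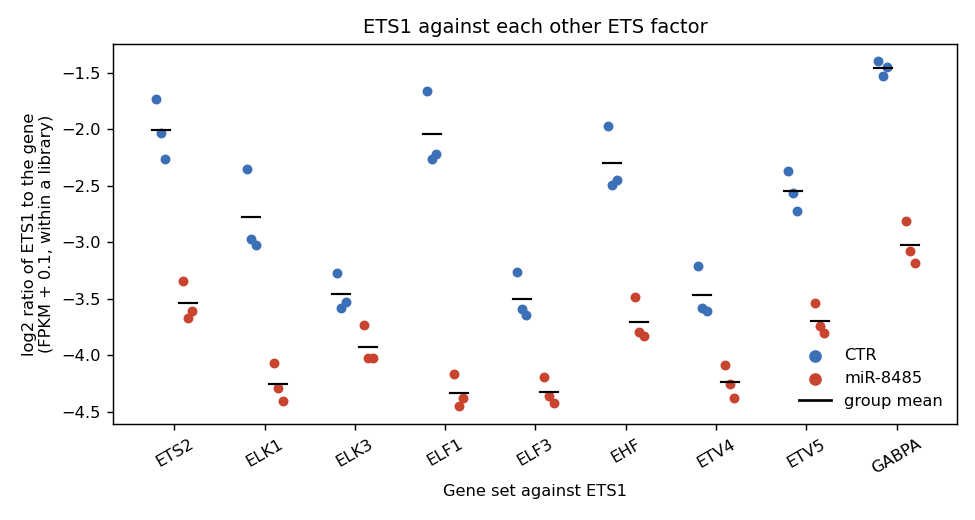
log2 ratio of ETS1 to each of the 9 other factors within each library (FPKM + 0.1), with blue points for CTR, red points for miR-8485 and black lines for group means. The red points lie below the blue ones in all 9 columns, with a mean difference of -2.29 for ELF1 and -0.46 for ELK3 (0.069 for ELK3 with a pseudocount of 1).

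Copies of the seed match were then counted in the longest annotated 3′ UTR of each protein-coding gene, overlapping copies included. ETS1 held 24 copies in 3600 bases, with a run of 45 alternating T and G bases, and 0.206% of the tested genes with a 3′ UTR held as many. ELK3 held 5 copies in 2644 bases, a count reached by 5.03% of these genes, EHF held 4 and GABPA 2. ETS2, ELK1, ELF1, ELF3, ETV4 and ETV5 held 0 copies. Among the 4 factors with a copy, 2 were called down and 2 in neither direction, and among the 6 without a copy 3 were called down, 1 up and 2 in neither direction.

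Among the other tested ETS genes, ELK4 held 10 copies in 8603 bases and ELF4 held 2 in 2766 bases, while ETV1, ETV3, ETV6, ELF2 and ERF held 0. For comparison, 30.2% of the 10673 tested genes with a 3′ UTR held at least 1 copy, and of these 44.1% were called down and 20% up, against 29.2% down and 31.9% up among genes without a copy. Of the 537 tested genes with at least 5 copies, a class that holds ETS1, ELK3 and ELK4, 59.6% were called down and 11.9% up. Genes with copies also had longer 3′ UTRs. The median was 2830 bases with at least 1 copy and 3810 with at least 5, against 1030 without a copy. Among the tested ETS genes, ETS1 had both the most copies and the most negative fold change. The other ETS genes were not ordered by their copies, since ELK4 with 10 copies was not called and ELF4 with 2 copies fell by 1.06 on the log2 scale. Which 3′ UTRs the cells use was not measured.

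**Figure D4:**
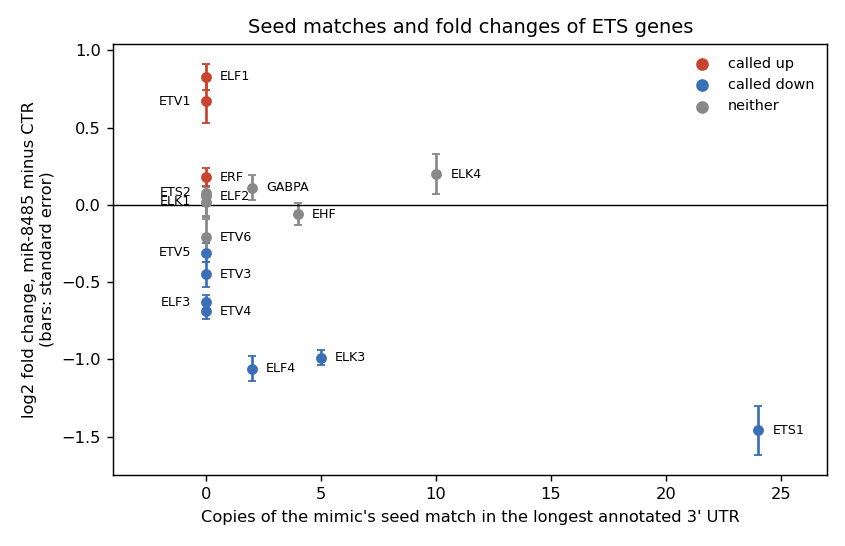
log2 fold change with its standard error (vertical axis) against the number of copies of TGTGTGT in the longest annotated 3′ UTR (horizontal axis) for the 17 tested ETS genes, red for called up, blue for called down and grey for neither. ETS1 stands alone at 24 copies and -1.46, and the 11 genes at 0 copies spread from -0.69 to 0.83.

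The proteins that work with ETS factors were taken from a list of 15 partners and regulators, of which 13 were tested, 2 called up and 5 down. Over all tested genes, 29.1% were called up, 30.5% down and 59.6% in either direction. SRF, the DNA-binding partner of the ternary complex factors, fell from 12.7, 12.6 and 14.1 FPKM in CTR to 6.31, 6.47 and 7.07 FPKM in miR-8485 (log2 fold change -0.98 ± 0.068 SE, limma adjusted p = 2.4e-05). RUNX1, which binds DNA together with ETS1, fell from 1.40, 1.73 and 1.77 FPKM to 0.536, 0.465 and 0.563 FPKM (log2 fold change -1.47 ± 0.21 SE, limma adjusted p = 6.7e-04). Its groups did not overlap, but RUNX1 was weakly expressed. Like ETS1, it lay below 1 FPKM in every miR-8485 library and passed the filter through its CTR values (mean 1.63 FPKM in CTR and 0.521 FPKM in miR-8485). The longest annotated 3′ UTR of RUNX1 held 13 copies of the seed match. The acetyltransferase coactivators EP300 and CREBBP fell by 1.12 and 0.56 on the log2 scale (adjusted p = 1.9e-04 and 8.8e-04 in limma).

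MAPK3, an ERK kinase that phosphorylates several ETS factors, had 17.2 ± 1.25 FPKM in CTR and 18.9 ± 0.720 FPKM in miR-8485 (SD, n = 3 each) and was not called (limma adjusted p = 0.095). GABPB1, a partner subunit of GABPA, fell from 3.51 ± 0.197 to 2.27 ± 0.133 FPKM (SD, n = 3 each, limma adjusted p = 6.2e-04), whereas GABPA itself was not called. JUN, an AP-1 subunit that binds beside ETS1, rose from 8.43, 7.51 and 8.65 FPKM to 13.7, 12.5 and 14.8 FPKM (log2 fold change 0.73, limma adjusted p = 2.2e-04). CIC, the repressor of the PEA3 genes, had a small rise from 9.34 ± 0.515 to 10.6 ± 0.363 FPKM (SD, n = 3 each, limma adjusted p = 0.0323), a call that 7 of 17 alternative settings lost, 4 of them with 1 library left out (CTR replicate 1 or 2, miR-8485 replicate 1 or 2). ATXN1, ATXN1L, COP1, MED23 and SP100 had log2 fold changes between -0.097 and 0.049.

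All 7 genes of a list of targets that CIC represses and that ERK signaling releases were downregulated, with a median log2 fold change of -0.68 and no overlap between the groups for any of them. Of all tested genes, 30.5% were called down and 34.0% lay lower in miR-8485 without overlap. The list, like the others, was chosen with earlier results of these data known. CCND1, which encodes cyclin D1, fell from 209, 216 and 223 FPKM to 25, 21.8 and 24.3 FPKM (log2 fold change -3.18 ± 0.060 SE, limma adjusted p = 4.1e-07). SPRY4, an inhibitor of receptor tyrosine kinase signaling, fell from 11.5, 12.7 and 12.5 FPKM to 2.53, 2.74 and 3.04 FPKM, a log2 fold change of -2.11. DUSP6, a phosphatase of ERK, fell from 48, 50 and 50.9 FPKM to 17.7, 18.5 and 19.2 FPKM, a log2 fold change of -1.42. The other inhibitors on the list, SPRED2, DUSP4, SPRY2 and SPRED1, fell by 0.68, 0.67, 0.44 and 0.31. ETV4 and ETV5 belong to the same class of CIC targets and fell by 0.69 and 0.31, whereas ETV1, also of that class, rose.

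Among 11 targets of SRF and the ternary complex factors, 7 were tested and 6 of them were downregulated, beside 30.5% of all tested genes, with a median log2 fold change of -0.48 over the 7. EGR1, an immediate early transcription factor, fell from 33.2, 37.9 and 38.0 FPKM to 13.2, 12.5 and 13.5 FPKM (log2 fold change -1.47, limma adjusted p = 4.3e-06). FOS fell from 3.29, 3.45 and 3.28 FPKM to 1.5, 1.42 and 1.54 FPKM (log2 fold change -1.12, limma adjusted p = 3.9e-05), and IER3, JUNB, IER2 and MCL1 fell by 0.92, 0.48, 0.34 and 0.26. NR4A1 had -0.26 and was not called (limma adjusted p = 0.0549), but it was called down without CTR replicate 2 (0.0204), with TPM (0.0153), with the replicate block (0.0441) and with voom (0.022). FOSB, an AP-1 subunit below the filter, went the other way from 0.619, 0.418 and 0.438 FPKM to 1.33, 1.02 and 1.18 FPKM, or from 42 to 62 fragments to 102 to 133, with a log2 fold change of 1.12 (limma adjusted p = 0.0131 on all genes above 0), a call lost without CTR replicate 3 (adjusted p = 0.0529) and without miR-8485 replicate 1 or 3 (0.0613 and 0.0597).

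Of 14 genes known as targets of ETS1 and the PEA3 factors in invasion and angiogenesis, 7 were tested, 4 were downregulated and 0 upregulated, with a median log2 fold change of -0.46. Over all tested genes, 30.5% were called down and 29.1% up. PLAUR, the receptor of urokinase, fell from 23.8, 20.4 and 21.6 FPKM to 9.26, 7.91 and 9.25 FPKM (log2 fold change -1.31 ± 0.083 SE, limma adjusted p = 1.7e-05). PLAU, urokinase itself, fell by 1.28, MET, the receptor of hepatocyte growth factor, by 0.91 and VEGFA, an angiogenic growth factor, by 0.46 on the log2 scale. MMP14, TIMP1 and TGFBR2 had log2 fold changes of 0.16, -0.13 and -0.24 and were not called, although MMP14 was called up without CTR replicate 1 (limma adjusted p = 0.0315), TIMP1 was called down without CTR replicate 2 (0.0434) and TGFBR2 was called down without CTR replicate 1 (0.0148) or miR-8485 replicate 3 (0.0333). TIMP1 was also called down with TPM (log2 fold change -0.24, limma adjusted p = 0.0376) and after removal of the trend with gene length (-0.35, 0.00458). TGFBR2 was also called down with TPM (adjusted p = 0.0144), a minimum mean FPKM of 5 (0.0438), the replicate block (0.0159) and voom (0.0224). The collagenase and stromelysin genes MMP1, MMP2, MMP3, MMP9 and MMP13, together with MMP7, had at most 17 fragments in any library and were not called, and PTGS2, with 19 to 29, was not called either. At this depth small differences in them were not detectable. The largest of these differences in size was that of MMP1, with 8, 13 and 9 fragments in CTR and 2, 8 and 0 in miR-8485 (log2 fold change -1.13, unadjusted p = 0.0604 and adjusted p = 0.185 in limma).

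GABP is known to activate genes of mitochondrial gene expression and respiration. A list of 8 GABP targets held such genes together with SKP2 and YAP1, which are not of that class. Of these 8 targets, 6, among them SKP2, were upregulated and 1 was downregulated, with a median log2 fold change of 0.24. Over all tested genes, 29.1% were called up and 30.5% down. TFB2M, a mitochondrial transcription factor, rose from 14.8, 15.7 and 15.3 FPKM to 23.6, 23.4 and 22.9 FPKM (log2 fold change 0.61, limma adjusted p = 2.9e-05). TFAM, which packages and transcribes mitochondrial DNA, fell from 13.2, 13.7 and 13.2 FPKM to 7.55, 7.78 and 8.29 FPKM (log2 fold change -0.76, limma adjusted p = 2.6e-05), and its longest annotated 3′ UTR held 13 copies of the seed match. COX5B, COX4I1, TFB1M, SKP2 and ATP5F1B rose by 0.37, 0.28, 0.27, 0.21 and 0.16, and YAP1 with 0.066 was not called. With single libraries left out, adjusted p rose at most to 0.0538 for TFB1M, 0.0524 for COX5B, 0.0716 for COX4I1 and 0.0896 for SKP2 in limma, so that each of these 4 calls was lost without at least 1 library. These small rises depended on scaling, since after rescaling to TPM only TFB2M was called up, and the direction of ATP5F1B turned under quantile normalization (-0.036).

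**Figure D5:**
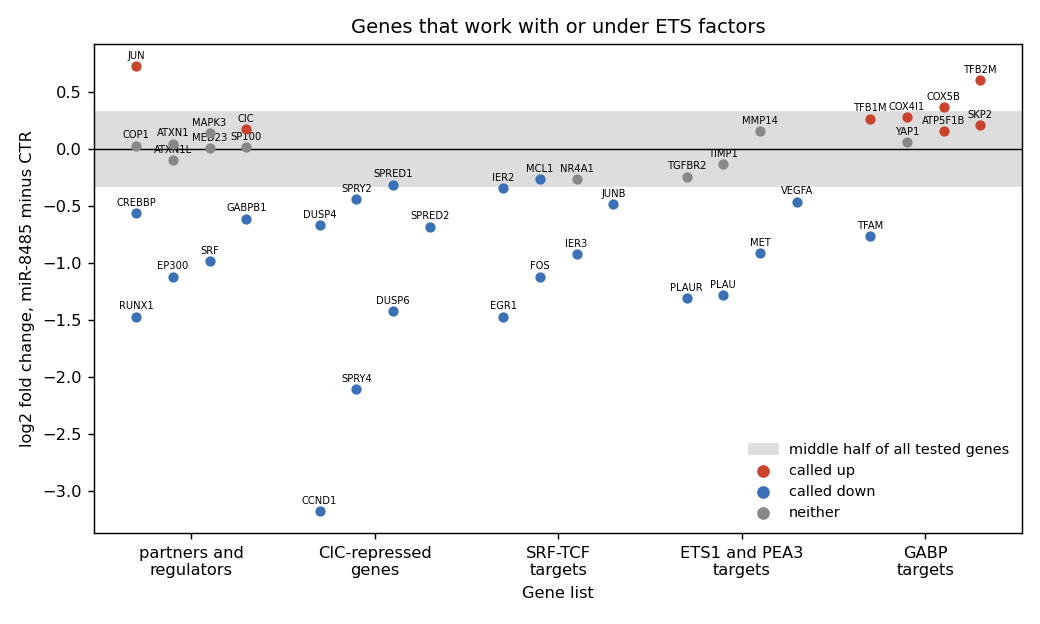
log2 fold change (miR-8485 minus CTR) of the tested genes in 5 lists of genes that work with or under ETS factors, with red for called up, blue for called down, grey for neither and a grey band for the interquartile range of all tested genes. The 7 CIC-repressed genes lie below 0, from SPRED1 at -0.31 to CCND1 at -3.18, and the GABP targets lie above 0 except TFAM at -0.76 (ATP5F1B, at 0.16, has -0.036 under quantile normalization).

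Over the tested genes of these 5 lists with a 3′ UTR, 16 held a copy of the seed match, of which 12 were called down, 1 up and 3 in neither direction. The 12 called down with a copy were SRF, EP300, RUNX1, PLAU, MET, VEGFA, DUSP4, DUSP6, SPRED1, CCND1, JUNB and TFAM. Of the 26 without a copy, 11 were called down, 7 up and 8 in neither direction. The 11 called down with 0 copies were GABPB1, CREBBP, PLAUR, SPRY2, SPRY4, SPRED2, EGR1, FOS, IER2, IER3 and MCL1. Over all tested genes with a 3′ UTR, 44.1% of those with a copy were called down and 20% up, against 29.2% down and 31.9% up without one.

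The motif CCGGAAGT, an ETS consensus, was searched on both strands in RefSeq promoters on GRCh38.p14, from 250 bases before to 50 after the start of each gene. It was present in 4.44% of 27305 promoters. Of the 22 ETS genes with a promoter in the table it was found in GABPA and ELK4, which are shown because they are the ETS genes whose own promoter holds the motif of the family.
GABPA: cctccgctctACTTCCGGccctggctcc
ELK4: agcccctcccCCGGAAGTgacgtgtagc
The capitals mark the motif, on the opposite strand in GABPA at chr21:25734895-25734922 (plus) and on the strand of the gene in ELK4 at chr1:205632016-205632043 (minus). Neither gene was called. Of the 8766 tested genes with a promoter in the table, 842 held the motif, of which 31.2% were called up and 28.3% down, against 28.5% up and 33.5% down of the 7924 without it. The median log2 fold change was 0.018 with the motif and -0.032 without, a small difference that was not tested. ETS1, ETV4 and ETV5 were not in the promoter table.

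By the smallest Euclidean distance over the 6 libraries, on log2(FPKM + 0.1) centred on the CTR mean, the protein-coding genes most like ETS1 among 10721 were ZMAT2 (distance 0.115), TMCO1 (0.127), SYT17 (0.202), CA2 (0.218) and PBK (0.232), with log2 fold changes from -1.51 to -1.37. This is a description of 6 libraries in 2 groups, in which a gene is near ETS1 mainly by a fall of the same size.

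Several ETS genes overlap others in the table, and whether the authors' counting used strand is not given in the sources used here. ELF3 is overlapped by its antisense gene ELF3-AS1, at 1.59 FPKM in CTR and 2.64 FPKM in miR-8485, ELF1 by WBP4 on the opposite strand at 8.85 and 11.3 FPKM, ETV4 by DHX8 on the opposite strand at 8.45 and 6.24 FPKM, and GABPA by ATP5PF on the opposite strand at 27.9 and 36.7 FPKM. ETV5 is overlapped by DGKG on the same strand, at 0.887 and 0.187 FPKM. For ETS1 the overlapping genes ETS1-AS1 and MIR6090 were listed at 0 in all libraries. The part of the overlapping genes in the values of ELF3, ELF1, ELF2, ETV4, ETV5 and GABPA was not tested.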

How the data were processed

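RNA-seq was measured in 6 HCT116 libraries. Per the labels and methods, the authors used fastp for trimming, HISAT2 version 2.0.5 for mapping to hg38 and featureCounts version 1.5.0-p3 for counting fragments (versions from the submitters' processing notes). The values deposited by the authors were FPKM per library, without further scaling, and 0 columns of values were left without a sample. At a tolerance of 0.05 fragments, 100% of the values above 0 were whole numbers of fragments, which were recovered for depth and for voom. The chi-square per gene was 2.66 to 9.55 within groups and 55.1 to 63.1 between them, so all libraries were counted separately.

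Samples were grouped by their titles. R 4.3.3 and limma 3.58.1 (variance trend) were applied to log2(FPKM + 0.1) for genes whose mean FPKM reached 1. Genes below were taken from the same fit on all genes above 0. Ratios, sums and shares were tested with exact two-sided permutation tests over 20 splits. The script was tested on simulated data. Other steps used Python 3.11.15 with matplotlib 3.10.9, scipy 1.17.1, pandas 2.3.3 and numpy 2.4.6. 3′ UTRs start after the stop codon of GENCODE release 44 protein-coding transcripts.

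The members and lists were chosen with earlier results of these data known. Named genes were all ETS genes, the list genes and the 5 genes most like ETS1. Alternatives were pseudocounts of 1 and 0.01, no filter or a minimum mean FPKM of 5, scaling by TPM, quantiles or median of ratios, removal of the gene length trend, no variance trend, a replicate block, voom, an adjusted p under 0.01 and each library left out. Their use on the pathway lists was added after seeing the data. A gene of the list of partners and regulators is not reported here and was left out of its counts.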

Additional observations from a re-analysis of the deposited data

How the results depend on the processing

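The 5 falls and the rise among the 10 ETS factors kept their direction and their call under the pseudocounts, filters, scalings, fits and single libraries left out that were run (ETS1 was not tested at a mean FPKM of at least 5), and ETS2, ELK1, EHF and GABPA stayed uncalled throughout. The size for ETS1 ranged from -1.65 to -0.87, the latter with a pseudocount of 1. With TPM, the median change over the tested genes was -0.12 in place of -0.0041 (log2), which moved the counts of all genes from 3593 up and 3769 down to 2613 up and 4725 down, and the small rises of ERF and CIC lost their calls. Other ETS genes called up numbered 1 in place of 2 with no filter, a mean FPKM of at least 5, TPM, the length trend removed, no variance trend and an adjusted p under 0.01, and 1 to 2 with single libraries left out. Those called down numbered 1 in place of 2 at a mean FPKM of at least 5, where 2 of them were tested.

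Partners and regulators called up numbered 1 in place of 2 with no filter, TPM, the replicate block and an adjusted p under 0.01, and 1 to 2 with single libraries left out. At a mean FPKM of at least 5, where 5 of the 13 were tested, 1 in place of 5 was called down. GABP targets called up numbered 2 in place of 6 with no filter and with an adjusted p under 0.01, 1 with TPM and 3 with the length trend removed. They numbered 3 to 5 with single libraries left out, the lowest without CTR replicate 3 or miR-8485 replicate 2. With no filter 1 SRF target in place of 0 was called up, and 0 to 1 ETS1 and PEA3 targets were called up with single libraries left out (MMP14 without CTR replicate 1). The direction of ATP5F1B was reversed under quantile normalization (-0.036).

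With a pseudocount of 1 the differences in the log2 ratio of ETS1 were -1.65 to ELF1, -0.97 to GABPA, -0.95 to ETS2, -0.89 to ELK1, -0.82 to EHF, -0.58 to ETV5, -0.27 to ELF3, -0.22 to ETV4 and 0.069 to ELK3. In canonical transcripts ELF5 held 1 copy of the seed match in place of 0 and SPI1 held 0 in place of 5. The replicate numbers did not pair the libraries, since the correlations of deviations were 0.067, 0.033 and -0.064 for the 3 same-numbered pairs. With the replicate block 3634 genes were called up and 3754 down, and no call among the ETS genes changed. CIC lost its call with the block (adjusted p = 0.0533), and TGFBR2 and NR4A1 were called (0.0159 and 0.0441). The fragments of low genes limit what can be seen, as for the matrix metalloproteinases.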
